A study of Mus musculus with 16 samples.

Results

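The epithelial to mesenchymal transition (EMT) genes examined here are 10 genes chosen by name: the transcription factors *Snai1*, *Snai2*, *Twist1*, *Twist2*, *Zeb1*, *Zeb2* and *Prrx1* and the mesenchymal effectors *Vim*, *Cdh2* and *Fn1*. The rule that chose them uses no measured value, although earlier results of these data were known when they were chosen. All 10 were present among the 23609 genes of the table, and all 10 passed the filter on low values, which kept the 21034 genes with a mean normalised count of at least 10. The tumors were primary mammary tumors of mice carrying MMTV-PyMT, a polyoma middle T oncogene driven by the mouse mammary tumor virus promoter in mammary epithelium. Wildtype animals were littermates of the gene trap animals, which were MMTV-PyMT/Resf1 +/-. The gene trap is a lentiviral insertion in *Resf1* that shortens its message, and it came on a C57BL/6 background that was crossed to the FVB PyMT strain, so both groups share the transgene and the mixed F1 background. The gene trap is carried in the germline, so tumor and stromal cells both hold it, and the ages of the animals were not given in the sources used here. GEO's labels describe 8 wildtype and 8 gene trap tumors. Columns of 5 wildtype and 5 gene trap tumors could be matched to labels and were used.

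EMT is the program by which epithelial cells loosen their junctions and take on mesenchymal shape and motility. The SNAI, TWIST and ZEB proteins bind E-box motifs in the promoters of junction genes such as *Cdh1* and repress them, and the family of microRNAs miR-200 in turn holds ZEB messages low in epithelial cells. PRRX1 is a homeodomain factor of limb and connective tissue mesenchyme. Vimentin (*Vim*) is the intermediate filament of mesenchymal cells, N-cadherin (*Cdh2*) is the cadherin that replaces E-cadherin, and fibronectin (*Fn1*) is a matrix protein. Fibroblasts, endothelial cells and macrophages of the tumor stroma express several of these genes as part of their normal identity, and basal cells of the mammary epithelium express others, such as *Snai2*. The question addressed was therefore which of the 10 varied together between tumors, and whether they followed *Pdgfra*, a receptor of fibroblasts, or *Krt14*, a keratin of basal cells. In bulk tumor RNA, fewer cells of a type and less RNA per cell cannot be told apart.

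Of 11 epithelial genes with a RefSeq promoter window, 8 held the E-box that the SNAI and ZEB factors bind, and *Cldn3*, *Dsp* and *Ovol2* did not. The epithelial genes printed here are among those 8. Below are the 250 bases before the RefSeq start site of *Crb3*, a polarity gene repressed by ZEB1, of *Epcam* and *Cldn4*, an adhesion molecule and a tight junction protein of epithelium, and of *Snai1* itself, shown because the relations of the factors with these genes are described further on. Capitals mark CAGGTG and its reverse complement CACCTG, searched on both strands. They come from build GRCm38.p6 and run 5′ to 3′ on the strand of the gene: *Crb3* at chr17:57061951-57062200 (+), *Epcam* at chr17:87635729-87635978 (+), *Cldn4* at chr5:134946935-134947184 (−) and *Snai1* at chr2:167537945-167538194 (+).
Crb3: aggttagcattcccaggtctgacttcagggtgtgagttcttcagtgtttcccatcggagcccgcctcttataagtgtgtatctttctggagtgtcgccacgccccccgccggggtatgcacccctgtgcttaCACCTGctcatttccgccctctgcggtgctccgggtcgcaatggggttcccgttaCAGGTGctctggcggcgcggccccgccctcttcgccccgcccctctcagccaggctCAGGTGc
Epcam: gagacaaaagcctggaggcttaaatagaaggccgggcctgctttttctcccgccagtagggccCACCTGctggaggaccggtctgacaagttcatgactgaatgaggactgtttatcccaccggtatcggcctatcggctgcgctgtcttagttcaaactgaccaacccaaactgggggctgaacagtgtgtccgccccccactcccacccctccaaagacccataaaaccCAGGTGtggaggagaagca
Cldn4: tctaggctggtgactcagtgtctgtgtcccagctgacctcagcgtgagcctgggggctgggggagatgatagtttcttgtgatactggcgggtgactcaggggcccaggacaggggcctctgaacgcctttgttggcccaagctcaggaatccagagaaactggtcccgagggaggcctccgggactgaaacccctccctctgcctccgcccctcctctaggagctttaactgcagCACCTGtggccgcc
Snai1: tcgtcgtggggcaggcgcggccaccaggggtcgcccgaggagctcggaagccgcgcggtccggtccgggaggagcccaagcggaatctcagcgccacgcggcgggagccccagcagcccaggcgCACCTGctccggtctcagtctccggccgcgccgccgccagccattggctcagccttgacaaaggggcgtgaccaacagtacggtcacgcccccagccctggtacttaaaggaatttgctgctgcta
The *Crb3* window held 3 E-boxes, whose first bases lay 118, 63 and 7 bases before the start. The *Epcam* window held 2, the *Cldn4* window 1 and the *Snai1* window 1. Of all 32851 windows of this length in the RefSeq table, 17.2% held at least 1 such motif, 2.06% at least 2 and 0.247% at least 3. Of the members, *Snai1*, *Twist1*, *Twist2*, *Zeb2*, *Prrx1* and *Vim* had a window, and these letters occurred in that of *Snai1*. A match is a run of letters and was not tested as a binding site.

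All 10 genes were detected in every tumor, over a wide span of levels. On the scale of mean normalised count per kilobase of the longest annotated transcript, *Vim* stood at 1668 and *Fn1* at 1103, and their ranges over the 10 tumors overlapped. *Zeb2* followed at 146, with a range of 102 to 209 that lay above that of *Zeb1*, which had a mean of 75.4 and a range of 51.3 to 99.6. *Prrx1* had a mean of 61.8 per kilobase and overlapped *Zeb1*. *Snai2* at 36.0, *Cdh2* at 27.6, *Twist1* at 27.4 and *Snai1* at 25.5 per kilobase did not differ beyond their ranges. *Twist2* was lowest, at 4.68 per kilobase, with a range of 1.79 to 7.97 that lay below all others. Its normalised counts of 4.51 to 20.1 make it the least precise of the 10. Between tumors, *Twist2* varied most, with a coefficient of variation of 41.3%, and *Snai2* least, with 13.3%. Annotated genes on the opposite strand overlap exons of *Zeb2* (*Zeb2os*, normalised count 18.5 to 42.7) and of *Zeb1* (*Gm10125*, up to 30.1). Whether the counting used strand was not given in the sources used here, so their reads may be shared in small part.

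Column totals ran from 32151583 to 37121386 in wildtype and from 31995078 to 42153593 in gene trap tumors, after the authors' scaling. Gene trap replicate 2 stood apart across all genes, with a highest correlation to another tumor of 0.965 against 0.985 to 0.988 for the other tumors. *Resf1* itself had a mean of 4099 ± 400 in the 5 wildtype and of 3516 ± 361 in the 5 gene trap tumors (SD). This is a log2 difference of -0.22 with a 95% interval of -0.42 to -0.02, and the ranges of the groups overlapped (limma, unadjusted p = 0.0313, adjusted p = 1.00). The difference ran from -0.28 to -0.17 with any tumor omitted. Reads from the message before and after the insertion are not separated in these values. The summed normalised counts of 10 fibroblast markers spanned 50504 to 112388 in wildtype and 69406 to 148005 in gene trap tumors. The highest were gene trap replicate 1 and wildtype replicate 5, and the lowest was wildtype replicate 4. Wildtype replicate 5 also had the highest sums of mural (8610), endothelial (5214) and macrophage markers (16249). Its skeletal muscle marker sum was 10218, against 673 to 4745 in the other tumors. It was not the highest tumor for adipocyte or lymphocyte markers.

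None of the 10 genes passed the test of a difference between genotypes. The comparison was made with limma on log2(normalised count + 1) over all 21034 genes, and 0 genes (0%) had an adjusted p under 0.05. An unadjusted p under 0.05 was reached by 479 genes (2.28%), and the 2 groups did not overlap in 111 genes (0.528%). Among the 10 EMT genes, 0 had an unadjusted p under 0.05 and 0 had groups that did not overlap. The log2 difference, which compares means of logs, was negative for 4 (*Zeb1*, *Prrx1*, *Vim* and *Fn1*) and positive for 6. For *Fn1* the mean of the values themselves was slightly higher in gene trap tumors, 9182 against 9159. The median log2 difference of the 10 was 0.0043, against 0.0047 over all genes tested. Without gene trap replicate 1 the number that were negative was 7, since *Snai2*, *Zeb2* and *Cdh2* lay so near 0 that they changed sign.

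**Figure D1:**
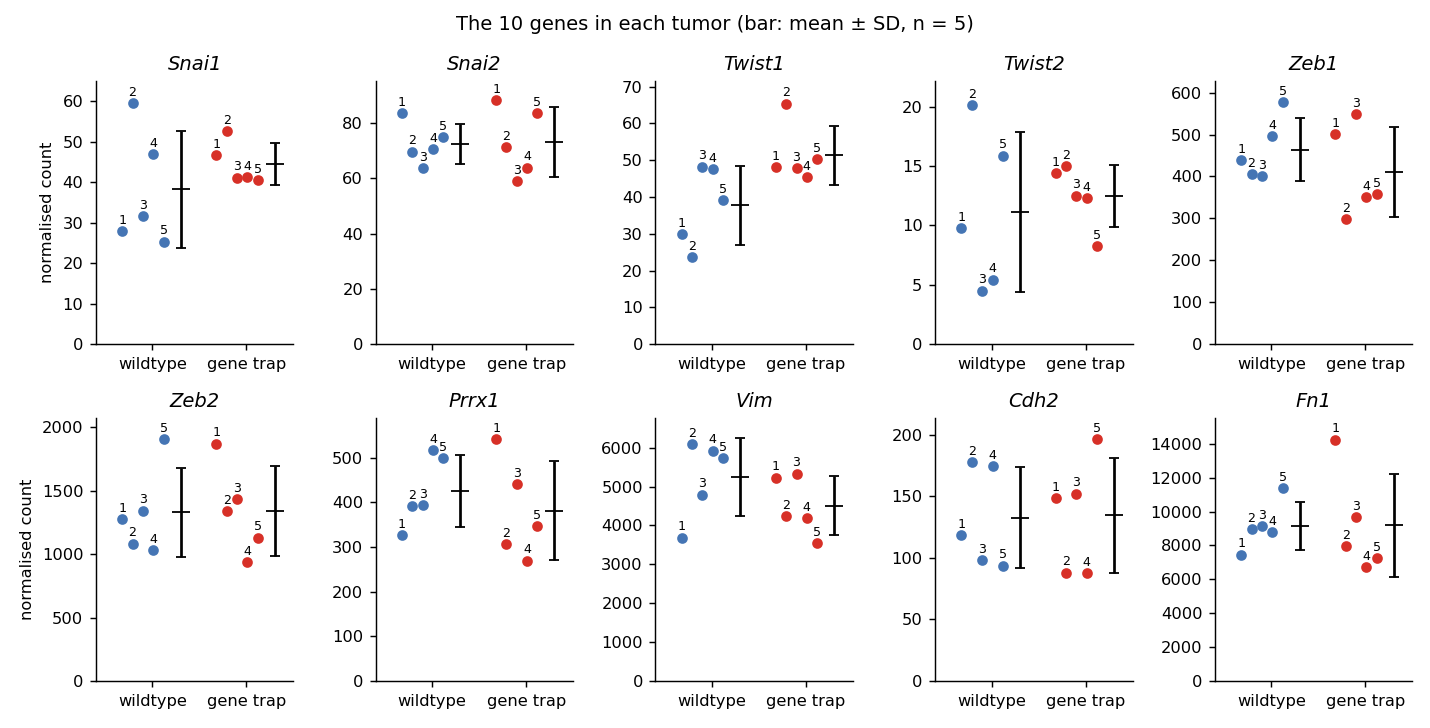
Normalised counts of the 10 genes in each tumor (vertical axis from 0), with points numbered by replicate, wildtype in blue and gene trap in red, and bars for the mean ± SD (n = 5 each). The groups overlap in every panel, and wildtype replicate 5 and gene trap replicate 1 are the highest of their groups in *Zeb2* and *Fn1*.

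*Twist1*, a basic helix-loop-helix factor of mesoderm, came nearest to a difference. Its normalised counts were 29.8, 23.6, 48.3, 47.6 and 39.1 in wildtype replicates 1 to 5, and 48.1, 65.4, 47.7, 45.3 and 50.3 in gene trap replicates 1 to 5. The wildtype tumors were spread widely and the gene trap tumors lay close together except for replicate 2, and the groups overlapped. The log2 difference was 0.47 (SE 0.23), with a 95% interval of -0.02 to 0.97 (limma, unadjusted p = 0.0577, adjusted p = 1.00). It lay between 0.32 and 0.57 over fits that each omitted a tumor, and at 0.39 without gene trap replicate 2.

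*Snai1*, the zinc finger repressor SNAIL, had normalised counts of 28.0, 59.5, 31.6, 46.8 and 25.3 in wildtype replicates 1 to 5 and 46.7, 52.7, 41.1, 41.3 and 40.4 in gene trap replicates 1 to 5. The gene trap tumors all lay inside the wildtype range. This gave a log2 difference of 0.28 (SE 0.24), with a 95% interval of -0.25 to 0.81. For *Twist2*, a close relative of *Twist1*, the log2 difference was 0.32 (SE 0.38), with an interval of -0.51 to 1.15, and again the gene trap values, 8.26 to 15.0, lay inside the wildtype range of 4.51 to 20.1. *Snai2*, the repressor SLUG of basal cells and neural crest, spanned 63.8 to 83.6 in wildtype and 58.9 to 88.3 in gene trap tumors. Its log2 difference was 0.00 with an interval of -0.35 to 0.36, the narrowest among the low expressed factors.

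*Zeb1* had normalised counts of 439, 405, 401, 497 and 578 in wildtype replicates 1 to 5 and 501, 297, 548, 351 and 357 in gene trap replicates 1 to 5. Of the gene trap tumors, replicates 2, 4 and 5 lay below every wildtype tumor and replicates 1 and 3 above most of them. Between genotypes the log2 difference was -0.20 (SE 0.17), with an interval of -0.58 to 0.18, and it ran from -0.31 to -0.09 with any tumor omitted. *Zeb2*, its paralog, showed 1274, 1084, 1344, 1033 and 1910 in wildtype and 1872, 1342, 1435, 935 and 1130 in gene trap replicates 1 to 5. Here the groups had nearly the same mean, 1329 ± 350 and 1343 ± 354 (SD, n = 5 each), and each had a tumor well above the rest, wildtype replicate 5 and gene trap replicate 1. Its log2 difference was 0.01 with an interval of -0.41 to 0.44.

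*Prrx1* had normalised counts of 327, 392, 393, 518 and 499 in wildtype and 543, 307, 441, 270 and 346 in gene trap replicates 1 to 5. The same gene trap replicates 2 and 4 that were lowest for *Zeb1* were lowest for *Prrx1*. Here the log2 difference was -0.18 (SE 0.19), with an interval of -0.60 to 0.24, and it ran from -0.32 to -0.07 with any tumor omitted.

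Of the effectors, *Vim* had normalised counts of 3686, 6094, 4795, 5926 and 5731 in wildtype and 5230, 4249, 5335, 4193 and 3552 in gene trap replicates 1 to 5. The gene trap tumors lay within the wildtype range except for replicate 5, and wildtype replicate 1 was nearly as low. The log2 difference was -0.21 (SE 0.15), with an interval of -0.54 to 0.12, and it ran from -0.33 to -0.13 with any tumor omitted. The lower end was reached without wildtype replicate 1 (limma, unadjusted p = 0.0241, adjusted p = 1.00). *Fn1* had 7467, 8965, 9146, 8808 and 11408 in wildtype and 14261, 7966, 9669, 6740 and 7275 in gene trap replicates 1 to 5. Gene trap replicate 1 was the highest tumor and gene trap replicates 4 and 5 the lowest, and the log2 difference was -0.04 with an interval of -0.44 to 0.36. *Cdh2* spanned 93.7 to 178 in wildtype and 87.9 to 196 in gene trap tumors, with a log2 difference of 0.01 and an interval of -0.58 to 0.59.

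**Figure D2:**
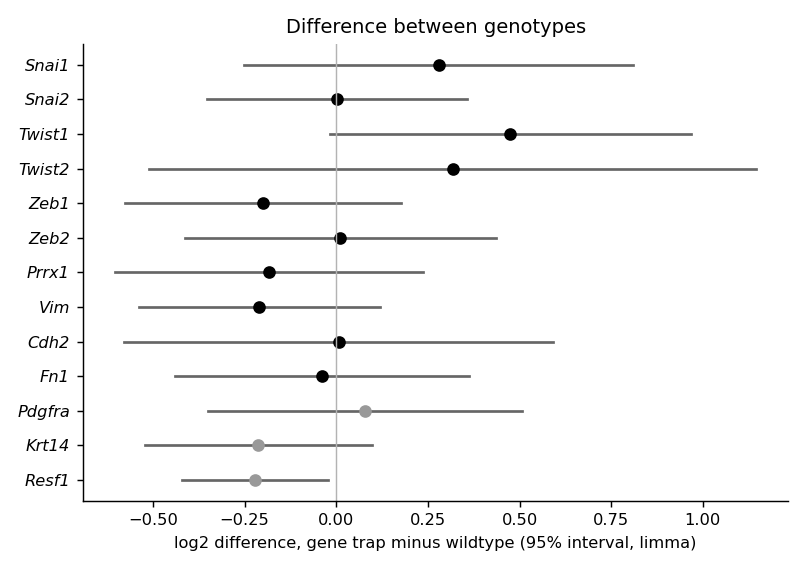
Log2 difference, gene trap minus wildtype, with its 95% interval from limma (5 against 5 tumors), for the 10 genes (black) and for *Pdgfra*, *Krt14* and *Resf1* (grey). All 10 intervals include 0; the widest is that of *Twist2*, -0.51 to 1.15.

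Other genes of the pathway gave no call either. Of 13 further EMT factors listed, 10 could be tested, 3 had a negative and 7 a positive log2 difference, and 0 had an unadjusted p under 0.05. Of 14 further mesenchymal effectors, 7 had a negative and 7 a positive one, 0 had an unadjusted p under 0.05, and their median log2 difference was 0.0020. Of these, the matrix glycoprotein *Tnc* had a log2 difference of 0.31 (interval -0.18 to 0.80). Of 18 epithelial genes that EMT factors repress or that oppose them, 12 had a positive and 6 a negative log2 difference, 0 with an unadjusted p under 0.05, and the median was 0.0433.

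Marker lists of other cells differed in how many log2 differences were negative, and their part in the values above was not tested. Over all genes tested, 48.6% had a negative log2 difference and 2.28% an unadjusted p under 0.05 by limma. Markers of a list share the same tumors, so their counts are not independent. Of 9 basal and myoepithelial markers, 9 had a negative log2 difference, with a median of -0.36, and 2 (*Myh11* and *Krt17*) had an unadjusted p under 0.05 by limma, none an adjusted one. Their sum spanned 8330 to 11447 in wildtype and 6112 to 8569 in gene trap tumors, and no marker of the list was at 0. *Krt14* had a log2 difference of -0.21 (interval -0.52 to 0.10). Of 10 fibroblast markers, 9 had a positive log2 difference (median 0.0924), 0 had an unadjusted p under 0.05, and none was at 0. *Pdgfra* had a log2 difference of 0.08 (interval -0.35 to 0.51). Of 8 endothelial and 8 macrophage markers, 7 and 7 had a negative log2 difference, with 0 at an unadjusted p under 0.05. Of 6 adipocyte markers 3 could be tested, all 3 had a negative log2 difference with a median of -0.48, and 0 had an unadjusted p under 0.05. Their sum spanned 1730 to 6966 in wildtype and 1135 to 4147 in gene trap tumors, and their median r over the 10 tumors was 0.466 with *Vim*, 0.471 with *Fn1*, 0.440 with *Zeb2* and -0.669 with *Cdh2*.

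Across the 10 tumors, the EMT genes did not vary as a single block. *Zeb1*, *Zeb2*, *Prrx1*, *Vim* and *Fn1* had a positive r with each other in all pairs over the 10 tumors. This set was picked from these same values of r, so its signs are a description and not a test. Within the set, *Zeb2* with *Vim* had an r of 0.254 (permutation p = 0.472), below that of *Prrx1* with *Cdh2* outside it, 0.406. No pair with *Snai1*, *Snai2*, *Twist1*, *Twist2* or *Cdh2* had an unadjusted p under 0.05 over all 10. Relations were measured as Pearson's r of log2(normalised count + 1), with a permutation test and adjustment over 120 relations (the 10 genes with each other and with 6 cell type anchors, and the anchors with each other). None of the 120 had an adjusted p under 0.05, and the smallest adjusted p was 0.0754. Of the 45 pairs among the 10 genes, 30 were positive and 6 had an unadjusted p under 0.05, all 6 of them positive. The share among pairs of other genes was not computed. With a single anchor, 11.6% of all other genes had an unadjusted p under 0.05 for *Pdgfra* and 4.79% for *Krt14*.

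The largest r among the pairs was that of *Prrx1* with *Fn1*, at 0.855 (permutation p = 0.00123, adjusted p = 0.0754, Spearman's rho 0.830, p = 0.00473, adjusted p = 0.181). Without gene trap replicates 1 and 4, the tumors farthest from the *Fn1* median, r was 0.774. *Zeb2* with *Fn1* had an r of 0.829 (permutation p = 0.00262, adjusted p = 0.0754, rho 0.806, p = 0.00672, adjusted p = 0.181), and 0.667 without those tumors. *Zeb1* with *Prrx1* had an r of 0.823 (permutation p = 0.00462, adjusted p = 0.0792, rho 0.806, p = 0.00756, adjusted p = 0.181), and 0.834 without gene trap replicates 1 and 4. The place of *Zeb2* in the set rested on wildtype replicate 5 and gene trap replicate 1. Without both of them, r with *Fn1* was 0.514 (exact permutation p = 0.189, n = 8), with *Zeb1* 0.173, with *Prrx1* 0.163 and with *Vim* -0.083, whereas *Prrx1* with *Fn1* had an r of 0.812 and *Zeb1* with *Prrx1* 0.771. In *Zeb1*, *Zeb2*, *Prrx1* and *Fn1* alike, gene trap replicate 1 and wildtype replicate 5 were among the 3 highest tumors and gene trap replicate 4 among the 3 lowest.

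*Vim* joined this set through *Prrx1*, with an r of 0.738 (permutation p = 0.0186, adjusted p = 0.195, rho 0.636, p = 0.0543, adjusted p = 0.296; 0.783 without gene trap replicate 5 and wildtype replicate 1). *Vim* with *Fn1* had an r of 0.635 (permutation p = 0.0452, adjusted p = 0.286, rho 0.636, p = 0.0542, adjusted p = 0.296; 0.791 without gene trap replicates 1 and 4). *Zeb1* with *Fn1* had an r of 0.679 (permutation p = 0.0288, adjusted p = 0.222, rho 0.758, p = 0.0148, adjusted p = 0.222; 0.720 without gene trap replicates 1 and 4). The paralogs *Zeb1* and *Zeb2* had an r of 0.546 with a permutation p of 0.104 (adjusted p = 0.384, rho 0.588, p = 0.0804, adjusted p = 0.362). *Snai1* with *Snai2* had an r of -0.116, and *Twist1* with *Twist2* one of -0.318, both far from a call. Pairs of *Snai1* turned on a few tumors. *Snai1* with *Cdh2* had an r of 0.426 over all 10, and 0.835 without gene trap replicates 2 and 4 (exact permutation p = 0.0129, adjusted p = 0.227, n = 8). *Snai1* with *Twist1* had an r of 0.091, which ran from -0.142 to 0.780 with any tumor omitted and was 0.743 without wildtype replicates 1 and 2 (exact permutation p = 0.0457, adjusted p = 0.250, n = 8). When each genotype was centred on its own mean, *Prrx1* with *Fn1* had an r of 0.876, *Zeb2* with *Fn1* 0.832 and *Zeb1* with *Prrx1* 0.806, so these values are of the same size within the genotypes.

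**Figure D3:**
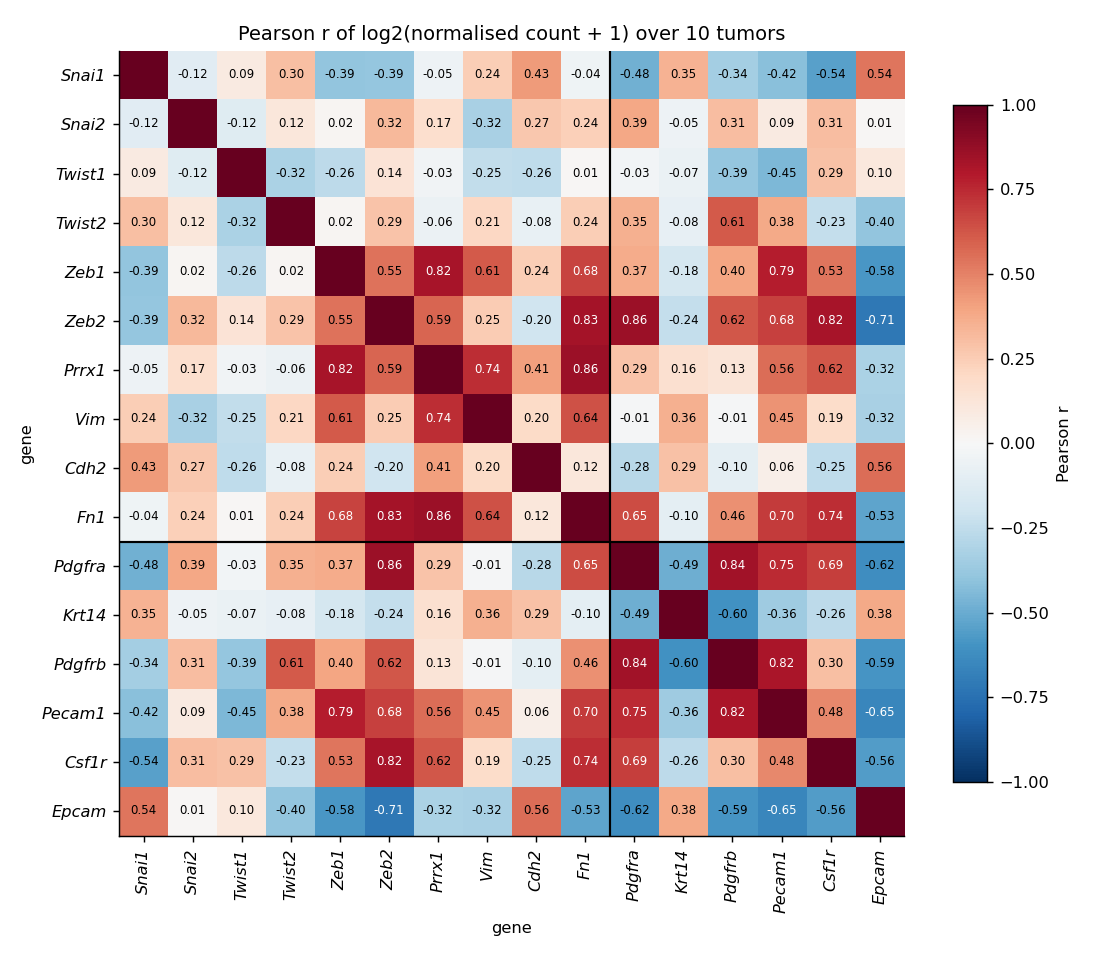
Pearson's r over 10 tumors between the 10 EMT genes and 6 anchors (*Pdgfra*, fibroblasts; *Krt14*, basal cells; *Pdgfrb*, mural cells; *Pecam1*, endothelium; *Csf1r*, macrophages; *Epcam*, epithelium), red positive and blue negative, with black lines between the 10 genes and the anchors. The pairs among *Zeb1*, *Zeb2*, *Prrx1*, *Vim* and *Fn1* all have a positive r, and *Zeb2* has its highest anchor value with *Pdgfra*, 0.86.

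*Zeb2* was the gene that followed *Pdgfra* most closely. *Pdgfra* had normalised counts of 1477, 1243, 1523, 902 and 2009 in wildtype and 2088, 1276, 1431, 1277 and 1368 in gene trap replicates 1 to 5, so its highest tumors, wildtype replicate 5 and gene trap replicate 1, were those of *Zeb2*. The r of *Zeb2* with *Pdgfra* was 0.857 (permutation p = 0.00171, adjusted p = 0.0754, rho 0.806, p = 0.00728, adjusted p = 0.181). It was 0.855 without wildtype replicate 4 and gene trap replicate 1, the tumors farthest from the *Pdgfra* median, and lay between 0.797 and 0.907 with any tumor omitted. Without wildtype replicate 5 and gene trap replicate 1 together, it was 0.585 (exact permutation p = 0.109, n = 8).

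*Fn1* with *Pdgfra* had an r of 0.650 (permutation p = 0.0427, adjusted p = 0.285, rho 0.564, p = 0.0963, adjusted p = 0.388; 0.712 without the farthest tumors). Without wildtype replicate 5 and gene trap replicate 1 its r was -0.075 (exact permutation p = 0.889, n = 8), so this relation rested on those tumors. With *Pdgfra*, 2 of the 10 EMT genes had an unadjusted p under 0.05, where 11.6% of all other genes did, and 6 of the 10 had a positive r.

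For *Prrx1*, the value turned on wildtype replicate 4 and gene trap replicate 1. Its r with *Pdgfra* was 0.288 (permutation p = 0.425, adjusted p = 0.708, rho 0.358) and it was 0.815 without wildtype replicate 4 and 0.028 without gene trap replicate 1. Wildtype replicate 4 had the lowest *Pdgfra* and the lowest fibroblast marker sum but the second highest *Prrx1*. It also had the highest *Acta2*, a smooth muscle actin of myoepithelial cells and of activated fibroblasts, at 3155 against 1187 to 2385 in the other tumors. *Acta2* was chosen for naming later, and other markers of its list were not highest there. *Myh11* was 1220 against 427 to 1513 in the other tumors, and *Krt17* was 502 against 320 to 1035. The sum of the basal and myoepithelial list was 10960 there, and highest in wildtype replicate 2, at 11447. The reason for the departure of this tumor was not tested. *Zeb1* with *Pdgfra* had an r of 0.367 (permutation p = 0.303, adjusted p = 0.650, rho 0.467) and of 0.726 without wildtype replicate 4 and 0.159 without wildtype replicate 5. *Vim* had an r of -0.0085 with *Pdgfra*, and 0.350 without wildtype replicate 4. *Snai2* and *Twist2* had an r of 0.385 and 0.355 and *Twist1* one of -0.029, and none of these passed the test.

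*Snai1* and *Cdh2* had the lowest r with *Pdgfra* of the EMT genes, and neither had an adjusted p under 0.05. *Snai1* with *Pdgfra* had an r of -0.482 (permutation p = 0.160, adjusted p = 0.497, rho -0.685, p = 0.0355, adjusted p = 0.268). Without wildtype replicate 4 and gene trap replicate 1 its r was -0.845 (exact permutation p = 0.00216, adjusted p = 0.227, n = 8). *Cdh2* with *Pdgfra* had an r of -0.279 (permutation p = 0.433, adjusted p = 0.711, rho -0.248). This lay inside the quartiles of all tested genes with *Pdgfra*, -0.305 and 0.297.

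*Krt14* gave no relation with any of the 10 genes. *Krt14* had normalised counts of 1519, 2343, 1879, 2307 and 1970 in wildtype and 1481, 2117, 1563, 1460 and 2034 in gene trap replicates 1 to 5. Values of r ran from -0.237 for *Zeb2* to 0.356 for *Vim*, with 4 of 10 positive, and 0 of 10 had an unadjusted p under 0.05 in the permutation test, where 4.79% of all other genes did. None had an adjusted p under 0.05 in any alternative tried. *Vim* with *Krt14* had a permutation p of 0.303 (adjusted p = 0.650, rho 0.479), *Snai1* an r of 0.347 (permutation p = 0.319, adjusted p = 0.661, rho 0.442), and *Snai2*, a factor of basal cells, an r of -0.053 (permutation p = 0.880, adjusted p = 0.960). With 10 tumors a correlation of moderate size would be missed, so no relation was detectable at this number, which is not to say that none exists. *Pdgfra* with *Krt14* had an r of -0.489 (permutation p = 0.160, adjusted p = 0.497, rho -0.624).

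**Figure D4:**
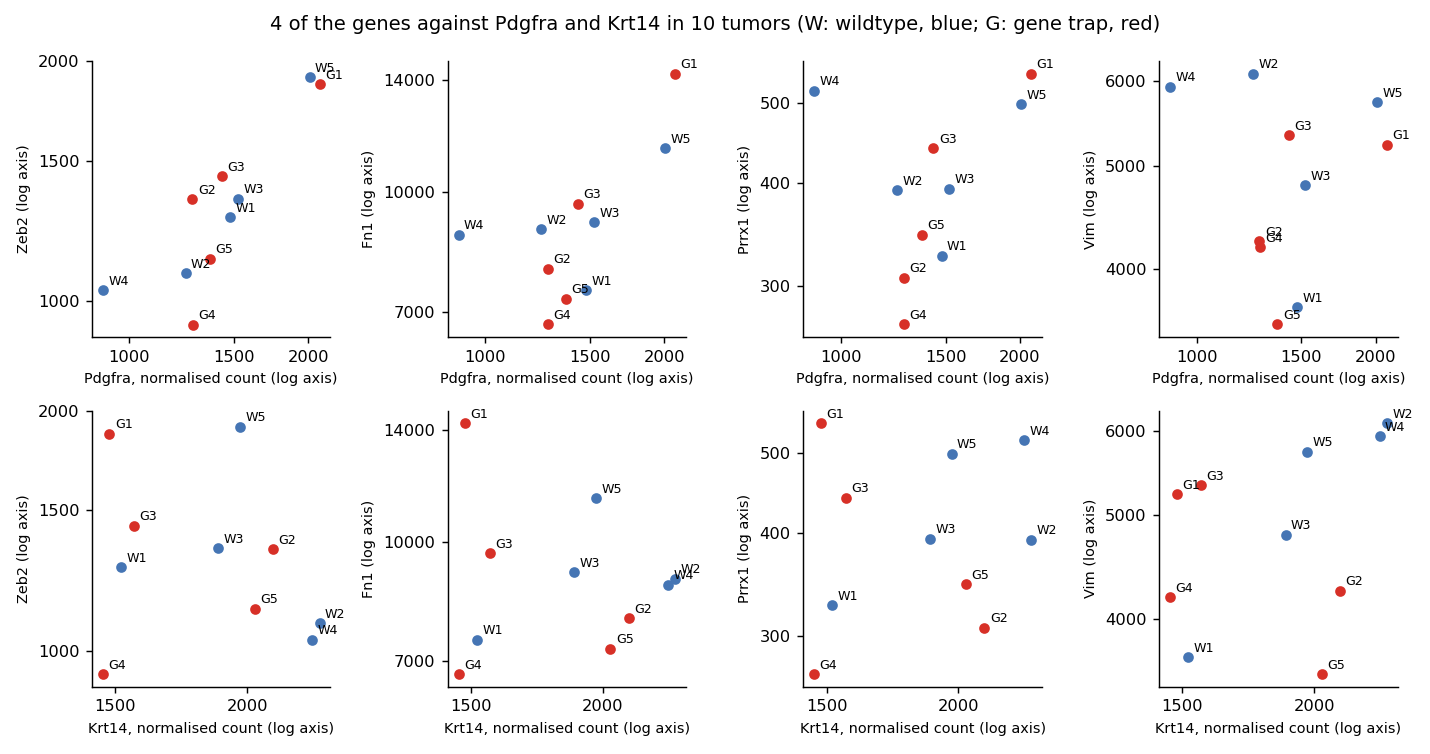
Normalised counts of *Zeb2*, *Fn1*, *Prrx1* and *Vim* against *Pdgfra* (upper row) and *Krt14* (lower row), log axes, in 5 wildtype (W, blue) and 5 gene trap (G, red) tumors. *Zeb2* increases with *Pdgfra* (r 0.857), W4 lies apart in the *Prrx1* panel, and no trend is seen against *Krt14*.

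The other anchors were related to the same genes, and to each other. *Zeb1* had its highest anchor value with *Pecam1*, an adhesion molecule of endothelium, with an r of 0.786 (permutation p = 0.00808, adjusted p = 0.121, rho 0.782; 0.527 without gene trap replicate 2 and wildtype replicate 5, the farthest tumors). *Zeb2* with *Csf1r*, the macrophage growth factor receptor, had an r of 0.825 (permutation p = 0.00377, adjusted p = 0.0754, rho 0.745; 0.573 without gene trap replicate 1 and wildtype replicate 5). *Fn1* with *Csf1r* had an r of 0.740 (permutation p = 0.0130, adjusted p = 0.156, rho 0.673), which was 0.330 without the same tumors. *Zeb2* with *Epcam* had an r of -0.715 (permutation p = 0.0195, adjusted p = 0.195, rho -0.673; -0.653 without wildtype replicate 5 and gene trap replicate 5). *Fn1* with *Pecam1* had an r of 0.702 (permutation p = 0.0218, adjusted p = 0.201), and *Zeb2* one of 0.682 (permutation p = 0.0296, adjusted p = 0.222). Without gene trap replicate 2 and wildtype replicate 5 these were 0.695 and 0.791. Without gene trap replicate 1 and wildtype replicate 5 they were 0.450 and 0.284. With *Pdgfrb*, of mural cells, *Zeb2* had an r of 0.623 and *Fn1* one of 0.460. *Pdgfra* itself had an r of 0.841 with *Pdgfrb*, 0.748 with *Pecam1* and 0.692 with *Csf1r*. Fibroblasts, mural cells, endothelium and macrophages therefore cannot be told apart as the cells that *Zeb2* and *Fn1* followed.

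The longer marker lists were read in the same way. Over the 10 fibroblast markers, the median r was 0.775 for *Zeb2* (range 0.599 to 0.857) and 0.667 for *Fn1*, where the median over all tested genes was -0.033 and -0.0023. It was 0.351 for *Prrx1*, 0.285 for *Zeb1* and 0.125 for *Vim*. It was -0.385 for *Snai1* and -0.265 for *Cdh2*, which had a positive r with 0 of the 10 markers. Over the 8 endothelial markers, *Zeb1* had the highest median, 0.668. Over the 9 basal and myoepithelial markers, *Vim* had a median r of 0.572, *Zeb1* of 0.470 and *Prrx1* of 0.440, and *Twist1* one of -0.378 with 0 of 9 positive. These lists share tumors and scaling with the 10 genes, and the medians are given as a description. *Krt14* itself lay below the median of its own list for *Zeb1* and *Prrx1*, with r of -0.179 and 0.163.

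Genes with the closest pattern to each of the 10 were found by Pearson's r over the 10 tumors among all tested genes. For *Zeb2* these were *Ednra*, an endothelin receptor of smooth muscle and stromal cells (r 0.974), *Thbd*, the endothelial anticoagulant thrombomodulin (0.968), and *Flrt2* (0.961). For *Fn1* they were the collagen prolyl hydroxylase gene *P3h3* (0.951), *Gfpt2* (0.946) and *Fkbp7* (0.936). For *Prrx1* they were the lysosomal protease *Lgmn* (0.937), *Zcchc24* (0.916) and *Thsd7a* (0.908), and for *Vim* the list held the basement membrane collagen *Col18a1* (0.910). The closest to *Snai1* were *Dtx2* (0.941), *Agfg2* (0.934) and *Usp36* (0.930), and to *Cdh2* they were *Plekhb2* (0.921), *Arhgap42* (0.913) and *Ube2f* (0.910). Those of *Zeb1*, *Twist1*, *Twist2* and *Snai2* were mostly genes of low count, such as *Gm15594* for *Zeb1* (0.953, mean 17.4). These genes were picked as the highest of 21034 over 10 tumors, and their values are a description.

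Against the 18 epithelial genes, over all 10 tumors, the values of r were mostly negative for the ZEB factors and mostly positive for *Snai1* and *Twist1*. *Zeb2* had a negative r with 18 of 18 (median -0.445) and *Zeb1* with 16 of 18 (median -0.461), where the median over all tested genes was -0.033 and 0.017. *Prrx1* and *Twist2* each had a negative r with 15 of 18 (medians -0.355 and -0.136), and *Snai2* with 13 of 18 (median -0.136). *Snai1* had a positive r with 16 of 18 (median 0.351), and *Twist1* had a negative r with 3 of 18 (median 0.268). None of the 126 relations had an adjusted p under 0.05 by permutation, and the smallest adjusted p was 0.105. This set of relations was added after the values of the 10 genes had been seen. The 18 genes share the same tumors, so these counts are not independent. After quantile normalization, *Zeb2* and *Zeb1* were each negative with 15 of the 18, and *Snai1* and *Twist1* each positive with 14. Without wildtype replicate 5, *Zeb2* was negative with 18 and *Zeb1* with 14, and *Snai1* was positive with 13 and *Twist1* with 14. With gene trap replicate 2 left out, *Zeb1* was negative with 17, *Zeb2* with 18, *Snai1* positive with 15 and *Twist1* positive with 12 of the 18, and *Rab25*, a trafficking GTPase of epithelium named after its value was seen, passed with *Zeb2* (r -0.950, exact permutation p = 0.00027, adjusted p = 0.0340, n = 9). Over all 10 tumors, *Rab25* with *Zeb2* had an r of -0.673 (permutation p = 0.0323, adjusted p = 0.313). Its r was -0.169 without wildtype replicate 5 and gene trap replicate 1. Without the tumors farthest from the median of the factor, the signs were less even. *Zeb2* was then negative with 16 (median -0.225, without wildtype replicate 5 and gene trap replicate 1), *Zeb1* with 16 (median -0.387), *Prrx1* with 12 and *Twist2* with 9, and *Snai1* was positive with 11 (median 0.217, without wildtype replicates 1 and 5) and *Twist1* with 15 (median 0.394).

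That smallest value was *Crb3* with *Zeb1*, chosen for naming after its value was seen, with an r of -0.855 (permutation p = 0.00083, rho -0.867; -0.743 without the tumors farthest from the *Zeb1* median). *Crb3*, whose promoter with 3 E-boxes is printed above, had normalised counts of 707, 875, 711, 758 and 632 in wildtype and 637, 1244, 644, 840 and 786 in gene trap replicates 1 to 5. Gene trap replicate 2, the lowest tumor in *Zeb1*, was the highest in *Crb3*, and without it r was -0.799. *Epcam* had an r of -0.582 with *Zeb1* and -0.715 with *Zeb2*, and *Cldn4* had one of -0.338 and -0.695. *Cdh1*, E-cadherin and the best known target of these repressors, had an r of 0.126 with *Zeb1*, -0.297 with *Zeb2* and 0.479 with *Snai1*. Its lowest r was with *Snai2*, -0.654 (permutation p = 0.0383, adjusted p = 0.326, rho -0.733). Of the 18 epithelial genes, 11 had promoter windows in the RefSeq table, and 8 of these held at least 1 E-box, in 9 of their 14 windows (64.3%). The windows of *Cldn3*, *Dsp* and *Ovol2* held none, and their r with *Zeb1* was -0.728, -0.28 and -0.73. Whether r goes with the motif was not tested. The share of a tumor that is epithelium was not measured, and its part in the negative values was not tested. *Pecam1* with *Epcam* had an r of -0.653 (permutation p = 0.0379, adjusted p = 0.2675).

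**Figure D5:**
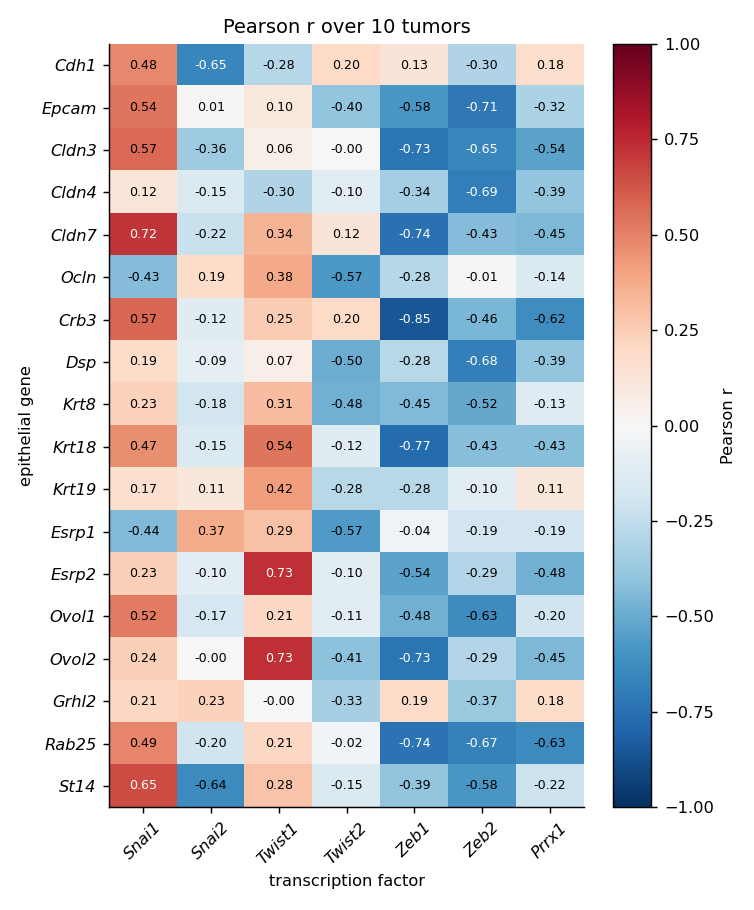
Pearson's r over 10 tumors of log2(normalised count + 1) between 18 epithelial genes (rows) and the 7 transcription factors (columns), red positive and blue negative. The *Zeb2* column is negative in all 18 rows and the *Snai1* column positive in 16.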

How the data were processed

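RNA of whole mammary tumors was sequenced from stranded total RNA libraries. The deposited values are a signal of estimated counts per gene, which the authors scaled between tumors by median ratio (Partek and DESeq2). Reads were aligned with STAR 2.7.8a to mm39 per the labels, and the counter and annotation were not given in the sources used here. Of 16 columns, 6 matched no label and were not used. With 99.5% of values not whole and no zeros, whole reads could not be recovered and the depth is unknown.

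Gene symbols matched 22899 of 23609 identifiers. Values were taken as log2(value + 1) and genes with a mean of at least 10 were fitted with limma 3.58.1 with trend (R 4.3.3), with Benjamini-Hochberg adjustment over 21034 genes and a two-sided threshold of 0.05. Correlations used 100000 permutations for 10 tumors and exact enumeration for fewer (numpy 2.4.6). Transcript lengths and overlaps came from GENCODE M21. Both programs were tested on simulated data. The text names the 10 genes, *Resf1*, 6 anchors, the 3 genes most alike to each, and up to 3 of each list by size of log2 difference. The *Crb3*, *Cdh1* and *Acta2* values, and the 18 by 7 relations, were chosen later. The 10 genes and the lists were chosen with earlier results of these data known. The p-values take the tumors as independent. The labels do not state that each tumor of a group came from a separate animal, so this was assumed.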

Additional observations from a re-analysis of the deposited data

Results flagged for a closer look

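The normalised counts of the 10 EMT genes, the 6 anchors and *Resf1* were searched in each genotype for a tumor far from the other 4, which made 34 groups. A gap of over 0.710 of the group's range was found in 4, where chance gives about 1 in 20, that is 1.7 of 34. *Twist1* in gene trap replicate 2 was 65.4, while the other 4 of its group lay at 45.3 to 50.3. *Pdgfra* in gene trap replicate 1 was 2088, against 1276 to 1431. *Csf1r* in the same tumor was 2465, against 1649 to 1875. *Epcam* in gene trap replicate 5 was 25278, against 21412 to 22314.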

How the results depend on the processing

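No gene passed an adjusted p of 0.05 between genotypes under any alternative (another pseudocount, filter, quantile normalization, no variance trend, each tumor left out, 0 to 0), nor did any of the 10 EMT genes. Leaving out each tumor, 3 to 7 of the 10 had a negative log2 difference, 7 without gene trap replicate 1. The log2 differences that changed sign then ranged from -0.15 to 0.14 (*Cdh2*), -0.21 to 0.059 (*Fn1*), -0.069 to 0.075 (*Snai2*) and -0.12 to 0.15 (*Zeb2*).

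The 2 genotypes are different animals, the labels do not state whether the replicate numbers pair them, and the main fit took them as unpaired. Same-numbered tumors correlated at -0.156 to 0.149, and 1 of 5 correlated best with its own number. With the replicate number as a block, 0 genes passed the adjusted p, 426 an unadjusted one, and 4 of the 10 genes had a negative log2 difference.

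With *Pdgfra*, 1 relation had an adjusted p under 0.05 on values without log, 1 after quantile normalization and 1 without wildtype replicate 4 (0 to 1 over tumors left out), in each case *Zeb2*. Among the 10 genes, 2 did so on values without log, 2 after quantile normalization and 2 without wildtype replicate 4 (0 to 2), in each case *Prrx1* and *Zeb2* with *Fn1*. With the other anchors, *Zeb2* with *Csf1r* passed in the same 3 alternatives (adjusted p = 0.0490, 0.0328 and 0.0497 by permutation), *Cdh2* with *Epcam* after quantile normalization (r 0.774) and *Zeb1* with *Pecam1* without wildtype replicate 4 (r 0.969). The cause was not tested. With *Krt14*, 0 did under any alternative (0 to 0). Of the relations with epithelial genes, 0 to 1 did, *Rab25* with *Zeb2* without gene trap replicate 2.

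Weak relations changed sign. *Vim* with *Pdgfra* was 0.042 with each genotype centred, 0.056 without log, 0.076 after quantile normalization, 0.28 without the 2 farthest tumors and -0.21 to 0.35 over tumors left out. *Twist1* with *Pdgfra* was 0.079 as rho and -0.25 to 0.069 over tumors left out, and *Twist2* with *Pdgfra* -0.11 without the 2 farthest. *Twist1* with *Krt14* was 0.26 centred, 0.018 as rho, 0.031 without the 2 farthest and -0.28 to 0.43 over tumors left out. *Twist2* with *Krt14* was 0.036 centred, 0.067 without log, 0.18 as rho, 0.0034 after quantile normalization, 0.082 without the 2 farthest and -0.38 to 0.17 over tumors left out. *Snai2* with *Krt14* was 0.084 after quantile normalization, 0.056 without the 2 farthest and -0.27 to 0.21 over tumors left out. *Fn1* with *Krt14* was 0.052 without the 2 farthest and -0.36 to 0.32 over tumors left out, and *Prrx1* with *Krt14* -0.11 to 0.45. Without the 2 tumors of highest *Pdgfra*, an alternative added after seeing the data, *Snai2*, *Zeb1*, *Prrx1* and *Fn1* had an r with *Pdgfra* of -0.0019, -0.15, -0.45 and -0.075, and *Snai2* and *Fn1* one with *Krt14* of 0.20 and 0.35. The 5 tumors per genotype limit every interval.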
